A study of Mus musculus with 32 samples.

Results

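The Hox genes of clusters A to D were examined in mesothelioma tumors grown at different sites of the body. All 39 genes whose symbol is Hox followed by a cluster letter and a paralog number had a row among the 39676 genes of the counts table, 11 in cluster A, 10 in B, 9 in C and 9 in D. They were read in 32 whole tumors from female mice aged 8 to 10 weeks, with 8 untreated mice in each of 4 groups, collected 10 days after inoculation. AB1 tumors came from 500000 cells of the murine mesothelioma line AB1 in BALB/c mice, and AE17 tumors from 1000000 cells of the murine mesothelioma line AE17 in C57BL/6 mice. Cells were inoculated either into the pleural space (IPL tumors) or under the skin of the right flank (SC tumors), and RNA was extracted from tumors freed of lung and other adjoining tissue. Each model is therefore 1 cell line in 1 host strain, and cell line, strain and cell number cannot be told apart in a comparison of AB1 with AE17. No sequencing lane was shared by AB1 and AE17 tumors of the same site either. RNA came from tumor and host cells together, so that fewer cells of a type and less RNA per cell cannot be told apart.

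Hox genes encode homeodomain transcription factors that give cells of the embryo their position along the head-to-tail axis. The order of the genes along each cluster follows the order of the body regions in which they act, so that low paralog numbers act anteriorly and high numbers posteriorly, in the lower trunk, the limbs and the urogenital region. Fibroblasts and other mesenchymal cells of the adult keep a Hox pattern that reflects where in the body they arose. The genes were therefore read in 3 classes, anterior (paralog groups 1 to 3, 8 genes), central (groups 4 to 8, 15 genes) and posterior (groups 9 to 13, 16 genes).

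The highest ratios between the models were those of genes at the posterior end of the clusters, the paralog group 13 genes among them. They sit at the ends of 4 clusters on different chromosomes. On GRCm38, Hoxd13 (ENSMUSG00000001819.4) opens the Hoxd cluster, which spans chr2:74668310-74765142 on the plus strand up to the end of Hoxd1. The Hoxa cluster lies on chromosome 6 on the minus strand, and the Hoxb cluster spans chr11:96194316-96368256 and the Hoxc cluster chr15:102921103-103036852, both on the plus strand. The homeoboxes of the 4 genes, the exon segments that encode the DNA-binding domain, are shown because they make clear how alike these paralogs are and that their reads can still be told apart. Capitals mark bases that differ from Hoxd13.
Hoxd13, chr2:74669930-74670109, plus strand: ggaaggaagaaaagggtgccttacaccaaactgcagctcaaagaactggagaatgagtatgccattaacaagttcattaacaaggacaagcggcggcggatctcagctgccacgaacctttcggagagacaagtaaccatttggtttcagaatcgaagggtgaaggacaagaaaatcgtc
Hoxa13, chr6:52258928-52259107, minus strand: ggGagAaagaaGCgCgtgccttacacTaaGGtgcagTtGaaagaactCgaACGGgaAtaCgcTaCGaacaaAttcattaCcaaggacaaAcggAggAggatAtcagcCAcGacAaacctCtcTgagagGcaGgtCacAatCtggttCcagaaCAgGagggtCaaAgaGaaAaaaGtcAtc
Hoxb13, chr11:96196020-96196199, plus strand: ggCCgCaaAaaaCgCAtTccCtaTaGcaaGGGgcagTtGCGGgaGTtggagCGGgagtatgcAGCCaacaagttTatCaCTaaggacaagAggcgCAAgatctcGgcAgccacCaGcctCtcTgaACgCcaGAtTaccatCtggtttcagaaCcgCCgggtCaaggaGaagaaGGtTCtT
Hoxc13, chr15:102927210-102927389, plus strand: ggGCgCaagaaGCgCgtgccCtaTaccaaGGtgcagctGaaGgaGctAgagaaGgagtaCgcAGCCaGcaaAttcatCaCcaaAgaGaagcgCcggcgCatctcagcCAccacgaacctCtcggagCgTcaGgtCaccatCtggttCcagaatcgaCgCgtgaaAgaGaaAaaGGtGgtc
Over these 180 bases, Hoxa13 matched Hoxd13 at 73.9% of positions (47 bases differed), Hoxb13 at 67.2% (59 differed) and Hoxc13 at 75% (45 differed). No stretch of 50 bases, the read length, was shared between the exons of any pair of the 4 genes, so a read that matched 1 of them exactly could not match another.

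The stretches of 250 bases upstream of 3 of these transcription starts are shown because Hoxd13 and Hoxd12 are neighbors on chromosome 2 with very different counts, and because Hoxa13 had the opposite pattern to Hoxd13. Capitals mark the letters TATAAA, searched on both strands, with the 2 matches of Hoxd13 overlapping each other. The sequences are from RefSeq on GRCm38.p6.
Hoxd13, chr2:74667975-74668224, plus strand: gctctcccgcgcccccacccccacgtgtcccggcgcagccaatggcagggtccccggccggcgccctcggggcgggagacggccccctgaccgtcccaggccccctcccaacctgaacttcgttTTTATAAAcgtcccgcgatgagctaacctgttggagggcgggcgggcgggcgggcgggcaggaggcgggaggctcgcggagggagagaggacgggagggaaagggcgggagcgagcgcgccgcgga
Hoxd12, chr2:74674763-74675012, plus strand: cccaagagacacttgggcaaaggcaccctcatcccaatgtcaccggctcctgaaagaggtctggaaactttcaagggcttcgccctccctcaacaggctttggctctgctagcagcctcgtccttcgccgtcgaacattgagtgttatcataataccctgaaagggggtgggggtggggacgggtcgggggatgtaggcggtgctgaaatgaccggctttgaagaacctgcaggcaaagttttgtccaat
Hoxa13, chr6:52260881-52261130, minus strand: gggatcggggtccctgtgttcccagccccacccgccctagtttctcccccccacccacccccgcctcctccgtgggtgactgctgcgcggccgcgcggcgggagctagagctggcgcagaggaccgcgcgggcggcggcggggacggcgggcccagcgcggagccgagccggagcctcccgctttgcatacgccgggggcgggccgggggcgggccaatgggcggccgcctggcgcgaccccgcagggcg
TATAAA was found in the window of Hoxd13 and not in those of Hoxd12 and Hoxa13. Of the 24 Hox upstream windows with a sequence, from 22 of the 39 genes, 16.7% held it, as did 12.3% of the 32536 upstream windows of all genes. GC content was 74.4% for Hoxd13, 55.6% for Hoxd12 and 80% for Hoxa13. These letters are a description of the windows, and their part in the expression values was not tested.

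Total counts per tumor ranged from 15432258 to 20649645, and the Hox genes took between 0.0295% and 0.0589% of them. Of the 39 Hox genes, 33 passed the filter on low counts in at least 1 comparison, 23 had at least 10 counts in every tumor, and 6 (Hoxb1, Hoxb2, Hoxc12, Hoxc13, Hoxd1 and Hoxd12) passed it in none. Hoxb1, Hoxc12, Hoxd1 and Hoxd12 stayed under 10 counts in every tumor. Of the mesothelial markers that had a row, Pdpn was read at 74.1 to 226.5 CPM (counts relative to library size, adjusted with TMM factors) in all tumors, while Wt1 ranged from 0 to 10.95 CPM and the median of Upk3b was 0 in both SC groups. Levels of different genes were compared only as CPM per kb of exon, and differences between groups were tested on counts with edgeR's quasi-likelihood test, with Benjamini-Hochberg adjustment over all genes tested and an adjusted p under 0.05 as the threshold.

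**Figure D1:**
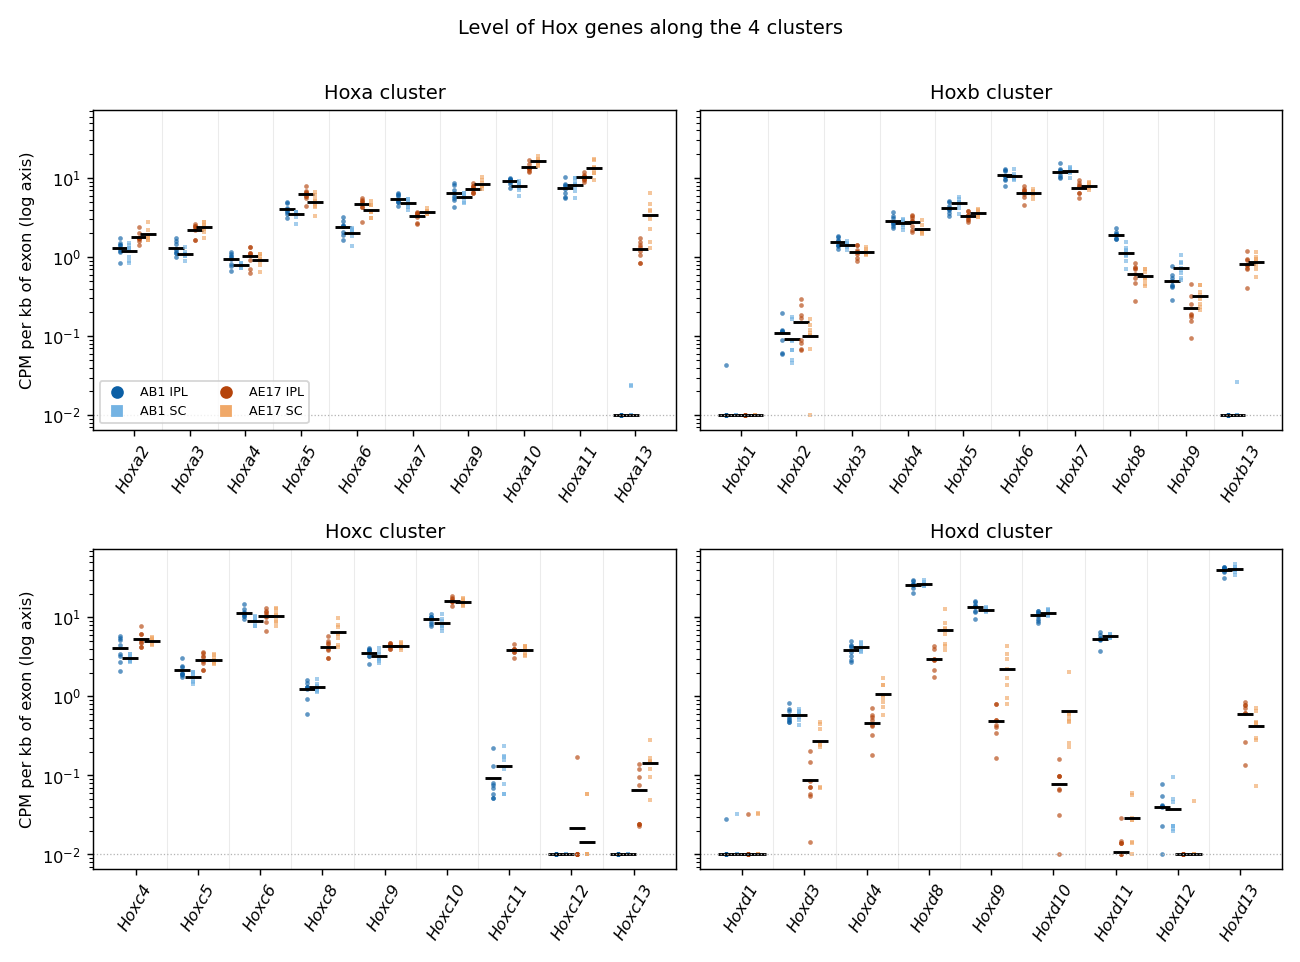
Level of 38 Hox genes in CPM per kb of exon (log axis), by cluster and paralog number, in the 32 tumors of the 4 groups. Points are tumors, black dashes are group means, and values under 0.01 are drawn at 0.01 on the dotted line. Hoxd8 to Hoxd13, apart from Hoxd12, stood high in AB1 tumors and low in AE17 tumors, and Hoxa13, Hoxb13 and Hoxc11 the other way around.

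AB1 and AE17 tumors were compared first, to see whether the models carry different Hox patterns at the same site. Hoxd13, a regulator of distal limb and urogenital development, was the highest Hox gene of AB1 tumors, at 39.8 ± 4.21 CPM per kb in IPL tumors (SD, n = 8) and 41 ± 3.98 in SC tumors. Its counts ran from 1521 to 2306 (median 1996) in AB1 IPL tumors and from 1361 to 2062 (median 1762) in AB1 SC tumors. In AE17 tumors they ran from 6 to 34 (median 28.5) at the IPL site and from 3 to 30 (median 18.5) at the SC site. No AE17 tumor came near an AB1 tumor at either site. The log2 difference of AB1 over AE17 was 6.57 at the SC site (SE 0.21, edgeR adjusted p = 9.482e-14) and 6.08 at the IPL site (SE 0.24, adjusted p = 1.589e-12).

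Hoxd11, which acts with Hoxa11 in the forelimb and kidney, showed an even wider ratio. It had 313 to 526 counts (median 433.5) in AB1 IPL tumors and 377 to 466 (median 438) in AB1 SC tumors. In AE17 tumors it had 0 to 2 counts at the IPL site and 0 to 4 at the SC site. The fitted log2 difference was 7.57 at the SC site and 8.81 at the IPL site, and it is given without its test because the gene passed the count filter only through AB1. Hoxd12 lies between Hoxd13 and Hoxd11 on the chromosome and had at most 4 counts in any AB1 tumor and at most 2 in any AE17 tumor. Hoxd12, a gene of the distal limb, was thus close to 0 between expressed neighbors in all 16 AB1 tumors.

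Hoxd10 and Hoxd9, posterior genes of lumbar and hindlimb patterning, had the same direction. Hoxd10 had 293 to 445 counts over the AB1 tumors of both sites, 0 to 5 in AE17 IPL tumors and 7 to 61 in AE17 SC tumors. Hoxd9 had 397 to 654 counts over the AB1 tumors, 6 to 29 in AE17 IPL tumors and 29 to 152 in AE17 SC tumors. Neither overlapped between the models at either site after scaling to library size, with log2 differences of 4.14 (Hoxd10, which passed the count filter only through AB1) and 2.48 (Hoxd9) at the SC site and of 7.04 and 4.76 at the IPL site. Hoxd8, a central gene, was the second highest Hox gene of AB1 tumors at 25.9 ± 2.89 CPM per kb in IPL and 26.4 ± 1.76 in SC tumors (SD, n = 8), against 3 ± 0.855 and 6.84 ± 2.86 in AE17 tumors. Hoxd4 and Hoxd3, at the anterior side of the cluster, were higher in AB1 by log2 1.94 and 1.09 at the SC site and by 3.04 and 2.73 at the IPL site. In AE17 IPL tumors Hoxd3 had a median of 5 counts, and it passed the count filter at that site through AB1. Hoxd3 was the only Hoxd gene of the 7 tested whose counts overlapped between the models at the SC site (31 to 55 against 5 to 33). Hoxd1 was not detected above a few counts in either model.

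The other members of paralog group 13 had the reverse pattern. Hoxa13, which acts with Hoxd13 in the digits and the urogenital tract, had 0 counts in all 8 AB1 IPL tumors, which allows up to 0.0195 CPM over the group, and at most 1 in an AB1 SC tumor, against 34 to 71 (median 54) in AE17 IPL tumors and 55 to 274 (median 137.5) in AE17 SC tumors. At the IPL site AE17 tumors were at least 158.6-fold higher, with 3 counts over the 8 AB1 libraries as the floor, and at the SC site the ratio was 583 (exact 95% interval 161 to 4820, from 1111 against 2 counts in all, covering counting error only). Hoxb13, a gene of the tail bud and the prostate, had 15 to 44 counts in AE17 tumors of both sites and at most 1 in an AB1 tumor. AE17 tumors were at least 91.85-fold higher for Hoxb13 at the IPL site, and the SC ratio was 269.7 (interval 47.98 to 10690). Hoxc13, a gene of hair and nail formation, had 0 counts in all 16 AB1 tumors, 1 to 6 in AE17 IPL tumors and 2 to 12 in AE17 SC tumors, at least 16.79-fold higher at the SC site over the same floor. Nearly all of the group 13 level of AB1 came from Hoxd13, which made up 100% of the group's summed CPM per kb in IPL tumors and 99.98% in SC tumors, whereas Hoxa13 led the group in AE17 with 45.9% and 69.95%. The summed level was 39.8 and 41 CPM per kb in AB1 IPL and SC tumors and 2.72 and 4.82 in AE17 IPL and SC tumors.

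**Figure D2:**
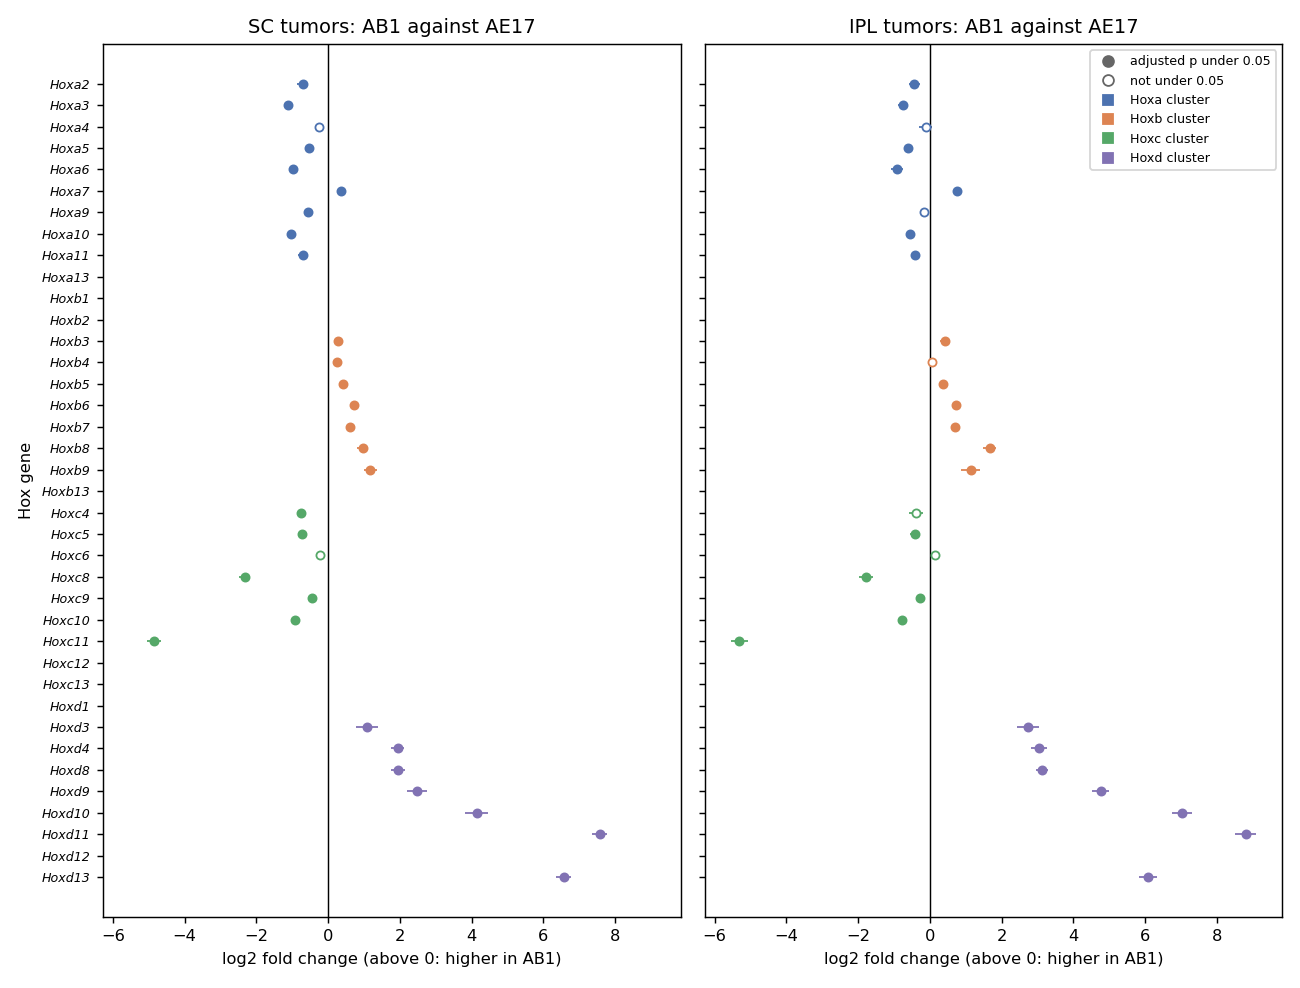
log2 difference of AB1 over AE17 tumors with its standard error for Hox genes that were tested, by cluster, at the SC and the IPL site. Filled points passed the threshold, and Hoxa13 and Hoxb13 have no point because their AB1 groups held at most 2 counts in all. All 7 Hoxd genes lie above 0, and Hoxc11 and Hoxc8 lie farthest below.

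Outside group 13, the Hoxc and Hoxa genes that passed the test were higher in AE17, apart from Hoxa7. Hoxc11, a posterior gene of the hindlimb and kidney, had 103 to 155 counts over the AE17 tumors and 2 to 9 over the AB1 tumors. The fitted log2 difference was -4.86 at the SC site and -5.31 at the IPL site, given without its test because the gene passed the count filter only through AE17. Hoxc8, a gene of the thoracic region, had 142 to 472 counts in AE17 tumors against 32 to 91 in AB1 tumors, with log2 differences of -2.33 (SC) and -1.78 (IPL). Hoxc10 differed less and was expressed in both models, at 9.48 (IPL) and 8.42 (SC) CPM per kb in AB1 and 16.3 ± 1.35 and 15.8 ± 1.33 in AE17 (SD, n = 8). Hoxc4 and Hoxc5 were lower in AB1 at the SC site by 0.75 and 0.72, and Hoxc9 by 0.45. At the IPL site Hoxc5 and Hoxc9 were lower by 0.41 and 0.27, and Hoxc4 did not pass (log2 -0.39, adjusted p = 0.0997). Hoxc6, at log2 -0.22 and 0.14, did not pass at either site.

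In the Hoxa cluster, Hoxa10, a gene of the uterus and the lumbar region, was the highest member in AE17 SC tumors, at 16.2 ± 1.51 CPM per kb (SD, n = 8), and had log2 differences of -1.05 (SC) and -0.56 (IPL). The anterior genes Hoxa2 and Hoxa3, which pattern the hindbrain and pharyngeal arches, were lower in AB1 by 0.71 and 1.13 at the SC site and by 0.43 and 0.74 at the IPL site. Hoxa5, which acts in the lung, Hoxa6 and Hoxa11 were lower in AB1 at both sites as well, by between 0.43 and 0.97. Hoxa9 passed at the SC site (log2 -0.57) and not at the IPL site (log2 -0.17, adjusted p = 0.2295). Hoxa7 was the exception, higher in AB1 by 0.36 and 0.76, and Hoxa4, at -0.24 and -0.12, passed in none of the 5 comparisons.

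The Hoxb genes that passed were higher in AB1, apart from Hoxb13. Hoxb7 was the highest member, at 12.1 (IPL) and 12.3 (SC) CPM per kb in AB1 and 7.58 and 7.97 in AE17, with log2 differences of 0.69 and 0.62. Hoxb6 differed by 0.74 (IPL) and 0.71 (SC), and neither gene's CPM overlapped between the models at either site. Hoxb8 and Hoxb9 differed by 1.67 and 1.14 at the IPL site and by 0.96 and 1.18 at the SC site. In AE17 IPL tumors Hoxb9 had a median of 8 counts, and it passed the count filter at that site through AB1. Hoxb3, Hoxb4 and Hoxb5 differed by 0.27, 0.24 and 0.41 at the SC site, where the call of Hoxb4 held in 5 of the 16 fits that left out 1 tumor. At the IPL site Hoxb3 and Hoxb5 differed by 0.41 and 0.36, while Hoxb4 did not pass (log2 0.07, adjusted p = 0.6685).

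By count, 31 of the 33 Hox genes tested passed at the SC site, 15 higher and 16 lower in AB1, where 63.7% of all 14718 genes tested passed (31.2% higher and 32.5% lower). At the IPL site 28 of 33 passed, 14 in each direction, against 59.1% of 14886 genes (30.5% higher and 28.6% lower). Groups did not overlap for 9 Hox genes higher and 13 lower in AB1 at the SC site (31.4% of all genes did not overlap, 14.9% higher and 16.5% lower) and for 11 higher and 7 lower at the IPL site (28.5% of all genes, 13.1% higher and 15.4% lower). Hoxa13, Hoxb13, Hoxc11, Hoxd10 and Hoxd11 passed the count filter only through the model in which they are high, so that their direction was fixed by the filter. Without these 5 genes, 26 of 28 passed at the SC site, 13 in each direction. At the IPL site 23 of 28 passed, 12 higher and 11 lower. Among the 28, groups did not overlap for 7 genes higher and 10 lower in AB1 at the SC site. At the IPL site groups did not overlap for 9 higher and 4 lower. Of these 28, the 5 Hoxd genes were called higher in AB1 at both sites, with that limit on Hoxd3 at the IPL site, and none of the 6 Hoxc genes was called higher. In cluster A, 1 member was higher and 8 were lower at the SC site and 1 and 7 at the IPL site, and in cluster B 7 were higher at the SC site and 6 at the IPL site, with none lower.

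Along the axis, the posterior class held both the highest ratios and genes that differed little. Because of the 5 genes whose direction the filter fixed, no median is given for the class. The 5 posterior genes with at least 10 counts in every tumor (Hoxa9, Hoxa10, Hoxa11, Hoxc9 and Hoxc10) differed by 0.45 to 1.05 in size on the log2 scale at the SC site and by 0.17 to 0.77 at the IPL site. That cut leaves out genes that are low in 1 model, among them Hoxd13, Hoxd9 and Hoxb9. These differed by 6.57, 2.48 and 1.18 at the SC site and by 6.08, 4.76 and 1.14 at the IPL site. The medians of the other classes were taken without the cut and cannot be set beside the range of the 5 genes. The median size was 0.71 and 0.69 over 15 central genes and 1.09 and 0.74 over 5 anterior genes at the SC and IPL site. All 5 anterior genes passed at each site, 13 (SC) and 11 (IPL) of the 15 central genes, and 8 (SC) and 7 (IPL) of the other 8 posterior genes, where 63.7% (SC) and 59.1% (IPL) of all genes did. At the IPL site these include Hoxd3 and Hoxb9, which passed the count filter there through AB1. In no class did all called members point the same way, and of the 8 posterior genes 3 were higher in AB1 at the SC site and 5 lower.

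The summed level of posterior genes nevertheless made up between 46.1% and 53.0% of the Hox expression of every group. Posterior genes took 51.6 ± 1.54% of the summed CPM per kb of all 39 Hox genes in AB1 IPL tumors (SD, n = 8), 53.0 ± 0.794% in AB1 SC, 46.1 ± 2.19% in AE17 IPL and 48.5 ± 1.63% in AE17 SC tumors. Without Hoxd13 the order of the models turned, with posterior shares of 40% (IPL) and 40.7% (SC) in AB1 and 45.8% and 48.4% in AE17. Anterior genes took 2.78% and 2.51% in AB1 IPL and SC tumors and 5.51% and 4.95% in AE17. The posterior sum itself was higher in AB1, at 106 (IPL) and 105.3 (SC) CPM per kb against 59.36 and 70.22 in AE17. The cluster that supplied the posterior genes differed as well. Hoxd genes made up 65.2 ± 2.37% of the posterior sum in AB1 IPL and 67.4 ± 1.95% in AB1 SC tumors, against 1.99 ± 0.486% and 4.62 ± 1.76% in AE17 IPL and SC tumors. In AE17 the Hoxa genes supplied 54.7% (IPL) and 58.8% (SC) of it and the Hoxc genes 41.5% and 34.8%. Paralog group 9 summed to 23.89 (IPL) and 22.25 (SC) CPM per kb in AB1 against 12.44 and 15.39 in AE17. The summed levels of paralog groups 10 and 11 were closer. Group 10 stood at 29.3 (IPL) and 27.9 (SC) in AB1 and 30.1 and 32.7 in AE17, and group 11 at 13 and 14.2 in AB1 and 14.1 and 17.3 in AE17. The leading member of group 10 was Hoxd10 in AB1 tumors, Hoxc10 in AE17 IPL and Hoxa10 in AE17 SC tumors, whereas Hoxa11 led group 11 in all 4 groups, with 57.8% (IPL) and 58.1% (SC) of it in AB1 and 72.5% and 77.4% in AE17. These shares are sums over the members and carry no test.

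**Figure D3:**
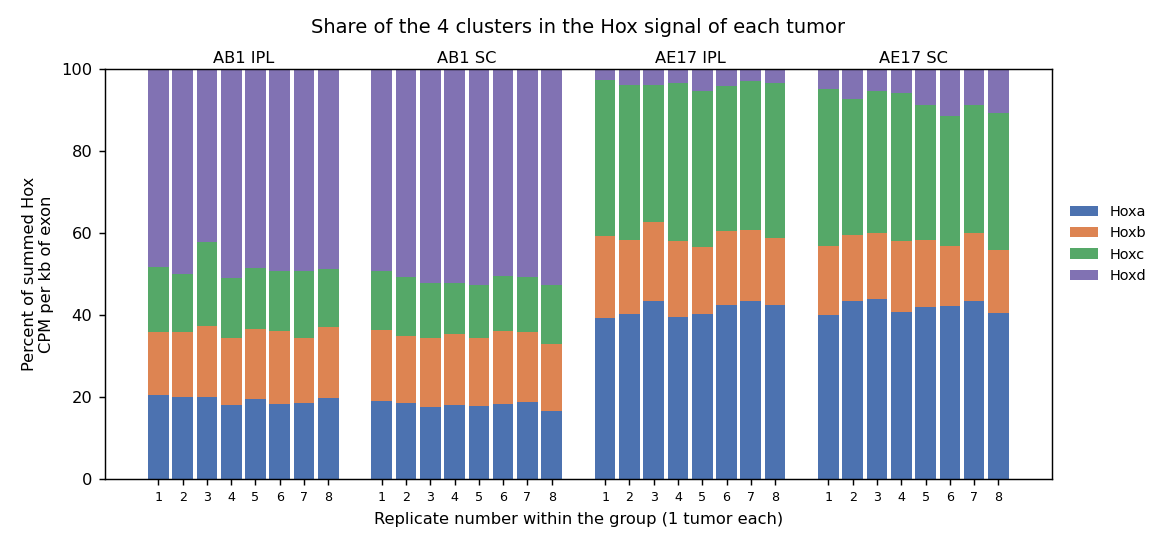
Share of each cluster in the summed CPM per kb of the 39 Hox genes (percent), with 1 stacked bar per tumor, grouped by model and site. The Hoxd share averages 48.4% in AB1 IPL and 51.4% in AB1 SC tumors, 3.67% in AE17 IPL and 7.82% in AE17 SC tumors.

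Host tissue markers also differed between the models. Summed fibroblast markers ranged from 3048 to 4285 CPM in AB1 SC and from 7665 to 11440 in AE17 SC tumors, without overlap. They ranged from 3427 to 10180 in AB1 IPL and from 5897 to 12990 in AE17 IPL tumors. Single markers did not all follow the sum. At the SC site the medians of Pdgfra, Col1a1, Col1a2 and Dpt were higher in AE17 and that of Pi16 in AB1 (59.91 against 20.9 CPM). At the IPL site those of Pdgfra and Col1a1 were higher in AE17 and those of Col1a2, Dpt and Pi16 in AB1 (Pi16 120.7 against 4.484). The part of these markers in the Hox differences was not tested. Sequencing lane could be held constant only across sites. Lane 2 carried 6 AB1 SC and 5 AE17 IPL tumors, and within it Hoxd13 had 1361 to 2012 counts against 11 to 34, Hoxd9 409 to 495 against 6 to 29, Hoxc11 2 to 8 against 103 to 155, and Hoxa13 0 to 1 against 34 to 71. These tumors also differed in site. With lane as a covariate 23 of 33 Hox genes passed between the models at the SC site, where 33.6% of all genes did. At the IPL site 20 of 33 passed, where 31.9% of all genes did. Both counts include genes whose direction the count filter fixed. The 8 calls lost at the SC site included Hoxd10 (log2 2.99, adjusted p = 0.0503) and Hoxd3 (1.27, adjusted p = 0.1452), and the 8 lost at the IPL site included Hoxa13 and Hoxb13 (adjusted p = 0.9999 for both), which had 0 counts in every AB1 IPL tumor. Hoxd9 and Hoxd13 passed at both sites in that fit. Annotated transcripts overlap some members. Other annotated genes share 62.9% of the exon bases of Hoxd3, 52.3% of those of Hoxd4, 52.9% of those of Hoxb3 and 35.0% of those of Hoxa11, and Hoxd3 and Hoxd4 share 339 stretches of 50 bases with each other. The strand setting of the counting is not given in the sources used here, so the values of these 4 genes are uncertain by the reads that overlapping transcripts may share.

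**Figure D4:**
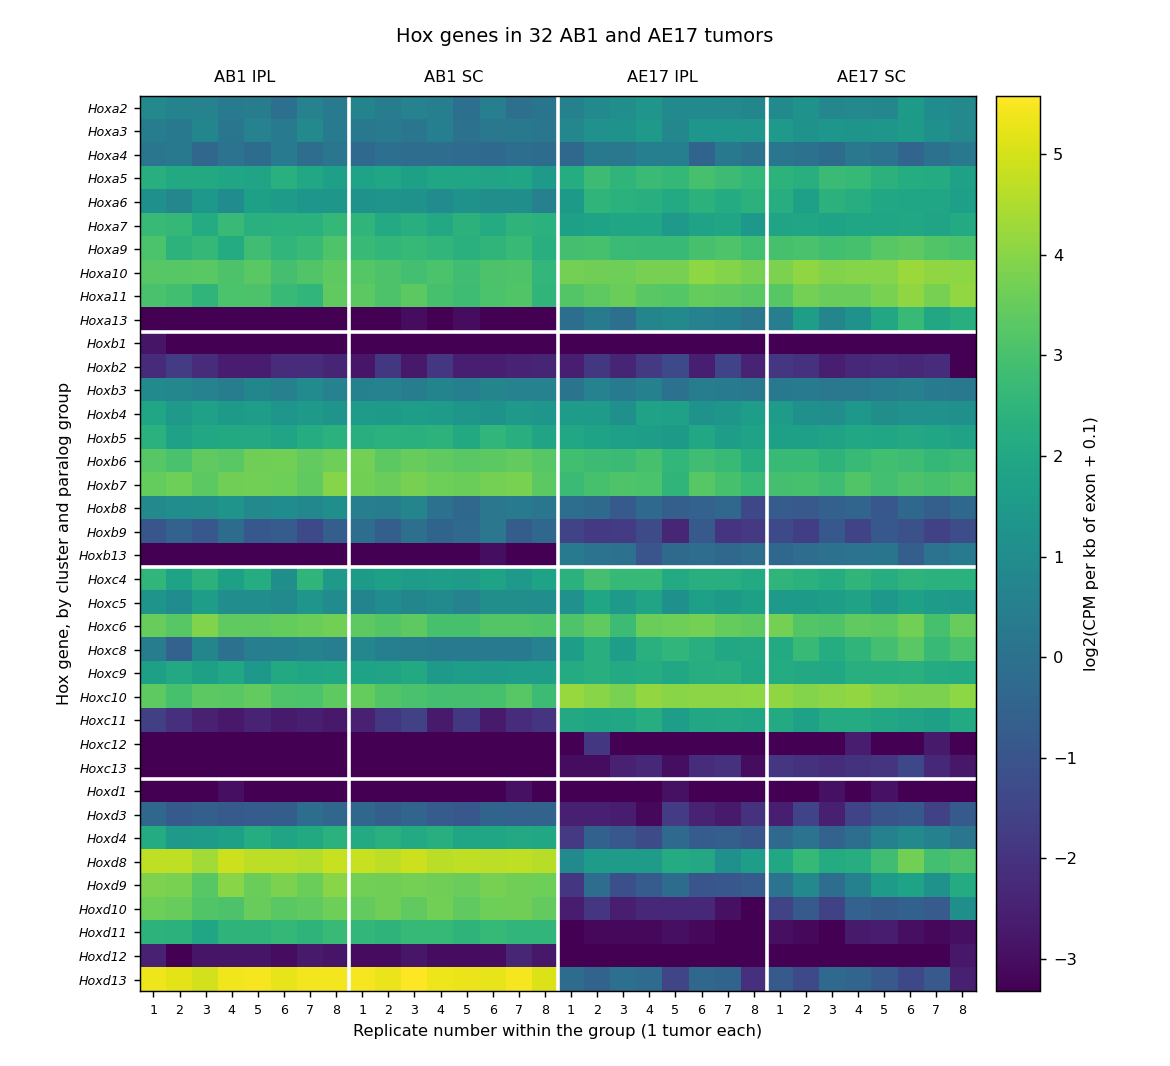
log2(CPM per kb + 0.1) of 38 Hox genes (rows in cluster order) in the 32 tumors (columns by group). The Hoxd8 to Hoxd13 rows, apart from Hoxd12, change between AB1 and AE17 columns, while most Hoxa, Hoxb and Hoxc rows show nearby colors in all 4 groups.

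The study asked how the pleural site changes a tumor, and in AB1 tumors few Hox genes passed between the IPL and the SC site. Of 30 Hox genes tested, 3 passed, 2 higher and 1 lower at the IPL site, where 23% of all 14645 genes tested did (12.3% higher and 10.7% lower). Hoxb8, a gene of the thoracic spinal cord and of blood progenitors, had 85 to 118 counts (median 96.5) in IPL tumors and 32 to 69 (median 50) in SC tumors. Every IPL tumor was above every SC tumor, where 5.03% of all genes did not overlap (2.5% higher and 2.53% lower at the IPL site), and Hoxb8 was higher at the IPL site by log2 0.76 (SE 0.14, edgeR adjusted p = 0.000912). Hoxc6, a gene of the thorax and mammary gland, had 428 to 691 counts against 326 to 475, with overlap, and was higher by 0.33 (SE 0.09, adjusted p = 0.0132). Hoxb9, a gene of the rib cage, had 16 to 38 counts against 22 to 47 and was lower by 0.57 (SE 0.20, adjusted p = 0.0442), a call that held in 4 of the 16 fits that left out 1 tumor. The 7 tested Hoxd genes lay between -0.16 and 0.07, and none passed.

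Lane and the markers of host tissue also differed between the AB1 sites. All 8 AB1 IPL tumors but only 2 AB1 SC tumors were sequenced on lane 3, where Hoxb8 had 85 to 118 counts against 65 in both SC tumors, a log2 difference of 0.54 that did not pass. No Hox gene passed within that lane, where 1.06% of all genes passed. By edgeR, 1 of 31 Hox genes and 2014 of all 15993 genes tested had an unadjusted p under 0.05. No Hox gene passed with lane as a covariate either, where 3.51% of all genes passed, with values of 0.60 for Hoxb8, 0.24 for Hoxc6 and -0.47 for Hoxb9. In that fit 2 of 33 Hox genes and 2847 of all 15681 genes tested had an unadjusted p under 0.05 by edgeR. Summed skeletal muscle markers ranged from 101.7 to 4256 CPM in AB1 IPL tumors and from 52.96 to 488.7 in SC tumors, fibroblast markers from 3427 to 10180 and from 3048 to 4285, and leukocyte markers from 68.59 to 204.6 and from 222.8 to 423.1. Among the leukocyte markers, Ptprc, Cd3e and Itgam had lower medians in IPL tumors, and Cd79a had a higher one (14.09 against 9.13 CPM). The part of these tissues in the 3 calls was not tested.

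In AE17 tumors, 4 Hoxd genes, Hoxa13 and Hoxa11 were lower at the IPL site. Of 31 Hox genes tested 6 passed, all lower in IPL tumors, where 5.73% of all 14668 genes tested passed (3.13% lower and 2.6% higher). Hoxd9 had 6 to 29 counts (median 17) in IPL tumors and 29 to 152 (median 70) in SC tumors. After scaling to library size it was the only Hox gene tested whose groups did not overlap, as was the case for 0.573% of all genes (0.3% lower and 0.273% higher), and it fell by 2.16 on the log2 scale in IPL against SC tumors (SE 0.37, edgeR adjusted p = 0.00728). Hoxd8 had 82 to 197 counts (median 135) against 183 to 597 (median 293.5), with a log2 difference of -1.19 (SE 0.24, adjusted p = 0.0153). Its highest IPL tumor and its lowest SC tumor crossed over.

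Hoxd4 had 9 to 35 counts in IPL and 29 to 87 in SC tumors and a log2 difference of -1.21 (SE 0.26, adjusted p = 0.0183). Hoxd3, at 1 to 14 against 5 to 33 counts, differed by -1.60 (SE 0.45, adjusted p = 0.0455). Hoxa13 had 34 to 71 counts in IPL and 55 to 274 in SC tumors and differed by -1.43 (SE 0.29, adjusted p = 0.0153). Hoxa11 changed least, from 374 to 667 counts in SC to 347 to 440 in IPL tumors, by -0.39 (SE 0.11, adjusted p = 0.048). Calls for Hoxd3 and Hoxa11 held in 3 of the 16 fits that left out 1 tumor, and those for Hoxa13, Hoxd4, Hoxd8 and Hoxd9 in all 16. Hoxa10 (-0.25, adjusted p = 0.056) and Hoxc8 (-0.60, adjusted p = 0.0542) lay just over the threshold.

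Hoxd10 fell below the count filter in this comparison. It had 0 to 5 counts in AE17 IPL tumors and 7 to 61 in SC tumors, without overlap. The fit of the AE17 tumors without a count filter gave a log2 difference of -3.00 (SE 0.50, edgeR adjusted p = 0.006), where 1.93% of all genes passed. In the fit of all 32 tumors Hoxd10 passed the filter only through AB1. Its log2 difference there, -3.00, is given without its test. Of the more posterior Hoxd genes none passed. Hoxd13 had 6 to 34 counts in IPL and 3 to 30 in SC tumors (log2 0.48, SE 0.37, adjusted p = 0.44), and Hoxd11 and Hoxd12 had at most 4 counts in any AE17 tumor. In the fit of all 32 tumors, where it too passed the filter only through AB1, Hoxd11 had a log2 difference of -1.31. Of the 5 Hoxd genes tested 4 passed, and their median was -1.21, against 0.004 for all genes tested.

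**Figure D5:**
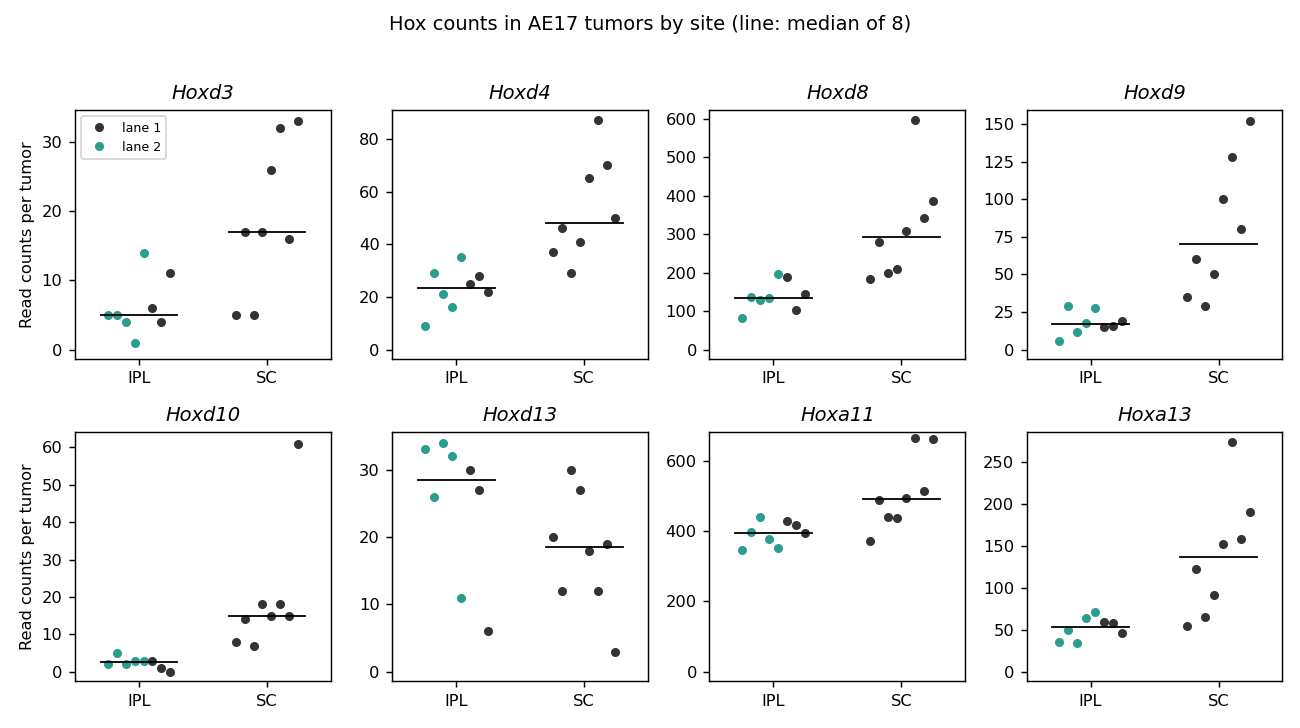
Counts of 8 Hox genes in each AE17 tumor at the IPL and the SC site, colored by sequencing lane, with the group median as a line. Hoxd9 and Hoxd10 counts are lower in IPL tumors with at most a touch between groups (6 to 29 against 29 to 152 and 0 to 5 against 7 to 61), Hoxd13 counts overlap throughout, and the SC tumors spread widely.

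The SC tumors of AE17 varied among themselves in the same genes. Hoxd9 had 100, 128, 80 and 152 counts in SC replicates 5, 6, 7 and 8 and 35, 60, 29 and 50 in replicates 1, 2, 3 and 4. Hoxa13 had 152, 274, 159 and 191 counts in replicates 5, 6, 7 and 8 and 55, 123, 65 and 92 in the others, and replicate 6 was also the highest for Hoxd8 (597) and Hoxd4 (87). Replicate 8 was the highest for Hoxd10 (61) and the lowest for Hoxd13 (3). The same 4 tumors were thus the highest for both Hoxd9 and Hoxa13, genes of different clusters. Summed skeletal muscle markers stood at 1162, 1211, 1187 and 291.9 CPM in replicates 5, 6, 7 and 8. They stood at 60.4, 728.4, 415.8 and 44.67 CPM in replicates 1, 2, 3 and 4. Summed keratinocyte markers stood at 12.84 CPM in replicate 5 and 22.58 in replicate 6, within a range of 2.256 to 22.58 in SC and 1.915 to 4.022 in IPL tumors. Without these 2 tumors, 2 Hox genes passed, Hoxd8 (-0.95, adjusted p = 0.0478) and Hoxd9 (-1.93, adjusted p = 0.0262), where 1.12% of all genes did. Fibroblast markers ranged from 5897 to 12990 CPM in IPL and from 7665 to 11440 in SC tumors, and muscle markers from 56.13 to 777.3 and from 44.67 to 1211. Summed heart muscle markers had a median of 32 CPM (10.81 to 197.5) in IPL and 13.86 (8.205 to 14.68) in SC tumors. The mesothelial markers Wt1 and Upk3b had medians of 2.1 and 1.86 CPM in IPL tumors and of 0.0898 and 0 in SC tumors. Their part in the Hox differences was not tested.

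Lane also bore on the AE17 comparison. All 8 SC tumors and 3 IPL tumors were on lane 1, where Hoxd9 (15 to 19 against 29 to 152 counts), Hoxd10 (0 to 3 against 7 to 61) and Hoxd4 (22 to 28 against 29 to 87) did not overlap after scaling to library size, while Hoxd8 and Hoxa13 did. The log2 differences within the lane were -2.31 for Hoxd9, -1.17 for Hoxd8, -1.40 for Hoxa13, -1.14 for Hoxd4, -1.48 for Hoxd3 and -3.80 for Hoxd10. None passed by edgeR, where 14 of all 15375 genes tested did (0.0911%). At an unadjusted p under 0.05 by edgeR there were 8 of 32 Hox genes and 2248 of the 15375. With lane as a covariate Hoxd8 (-1.16, adjusted p = 0.0409), Hoxd9 (-2.30, adjusted p = 0.0135) and Hoxd10 (-3.81, adjusted p = 0.00626) passed, where 0.74% of all genes did. The calls of Hoxa11 (-0.36), Hoxa13 (-1.40), Hoxd3 (-1.48) and Hoxd4 (-1.14) were lost in that fit, by edgeR's adjusted p.

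The site difference itself differed between the models for 8 of 33 Hox genes in the fit of all 32 tumors, all with a value above 0, that is, relatively higher at the IPL site in AB1 than in AE17. Of all 15681 genes tested 20.5% passed this interaction test, 11.9% above 0 and 8.62% below 0. Hoxd genes had the largest values, at log2 2.87 for Hoxd10, 2.25 for Hoxd9 (edgeR adjusted p = 0.000105), 1.61 for Hoxd3 (0.0109), 1.16 for Hoxd8 (0.00154) and 1.08 for Hoxd4 (0.00686). Hoxd10 is given without its test because it passed the count filter only through AB1. Hoxb8 (0.68), Hoxa10 (0.47) and Hoxa7 (0.37) had smaller values, and the calls of Hoxb8 and Hoxa7 held in 23 and 21 of the 32 fits that left out 1 tumor. Both were lost without AE17 SC replicates 5 and 6 (0.70 and 0.38). The comparisons of sites and of models share tumors with each other and with this test. For the Hoxd genes the AB1 sites differed by little and the AE17 sites by more, whereas for Hoxb8 it was the AB1 sites that differed. With lane as a covariate Hoxd9 (2.39) and Hoxd10 (3.68) passed, where 0.746% of all genes did. The calls of Hoxd3 (1.40), Hoxd8 (1.11), Hoxd4 (0.88), Hoxb8 (0.72), Hoxa7 (0.39) and Hoxa10 (0.18) were lost there.

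HOX proteins bind DNA together with PBX and MEIS cofactors, and 8 of 8 cofactor genes tested differed between the models at the SC site, 2 higher and 6 lower in AB1, and 6 of 8 at the IPL site, 2 higher and 4 lower, where 63.7% and 59.1% of all genes did. Meis2 (log2 -1.52 at the SC and -1.03 at the IPL site) and Meis3 (-1.11 and -1.35) were lower in AB1. Between sites, Meis1 was higher in IPL tumors of AB1 (0.59) and of AE17 (0.52). Of 7 tested genes from a list of upstream regulators of Hox expression in the embryo, 6 of retinoic acid signaling and the growth factor gene Gdf11, 4 passed between the models at each site. The retinoic acid synthesizing enzymes Aldh1a1 (2.38 and 2.46) and Aldh1a2 (1.99 and 2.14) were higher in AB1 at the SC and IPL site. Of 23 chromatin regulators of Hox clusters, among them Trithorax and Polycomb genes, which keep the clusters on or off, 18 passed at the SC site (11 higher in AB1) and 16 at the IPL site (10 higher). They included the Polycomb genes Cbx2 (1.25 and 1.97) and Cbx7 (1.17 and 1.26) and the demethylase gene Kdm6a (-0.93 and -0.74). Between sites 5 of the 23 passed in AB1, all higher in IPL tumors, and 1 in AE17, Eed at 0.27, where 23% and 5.73% of all genes passed.

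Noncoding transcripts of the clusters and regional factors outside them were read as well. The Hoxd transcript Hoxd3os1 was higher in AB1 by log2 1.28 (SC) and 2.46 (IPL) and lower in IPL tumors of AE17 by 1.19, so that its values had the direction of Hoxd3 and Hoxd4, whose reads it may share. All 7 noncoding transcripts tested passed between the models at the SC site, 2 higher in AB1, and 5 of 7 at the IPL site, where 63.7% and 59.1% of all genes did. Of 6 regional factors tested in AE17, 3 were lower in IPL tumors (3.13% of all genes were), namely En1 (-1.26), a gene of the hindbrain boundary and the ventral limb, Prrx1 (-1.13), a gene of limb mesenchyme, and Emx2 (-0.998), a gene of the forebrain and urogenital system. In AB1 none of 5 passed between sites by edgeR, where 23% of all genes did. Between the models En1 was lower in AB1 by 3.68 at the SC and by 1.80 at the IPL site, and Foxf1, a gene of lung and gut mesenchyme, was higher by 1.22 and 1.93.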

How the data were processed

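Whole-tumor RNA from 32 mice was sequenced as 50 bp single-end reads. The authors checked the reads with FastQC, mapped them with HISAT2 (2.0.4 in the submitters' processing notes) and deposited counts of reads per gene, without normalization. The strand setting of the counting is not given in the sources used here, and the genome that the study's methods name was not used here. Coordinates and exon lengths were matched by gene identifier from GENCODE M21 on GRCm38. Column descriptions tied columns to samples, and column names gave lanes 1 to 3.

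Counts were tested in R 4.3.3 with edgeR 4.0.16 (filterByExpr, TMM factors, robust quasi-likelihood F test, two-sided), with Benjamini-Hochberg adjustment over all genes tested and adjusted p under 0.05 as the threshold. Each pair of groups was fitted alone, and the interaction in 1 fit of all 32 tumors. CPM values use TMM factors and were divided by kb of the union of exons for levels between genes. A floor of 3 counts over a group was used where the group held 0 counts, and a ratio with its exact 95% interval where it held 1 to 3. No replicate libraries were copies of each other (chi-square per degree of freedom 5.51 to 134.7). Replicates are separate mice, so p values measure the spread between mice. Scripts were tested on simulated data.

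Hox genes were the symbols with a cluster letter A to D and a number. Those called in at least 1 comparison are described, apart from items that are not reported here, with the leading member of each cluster, and from each other list at most 4 called genes with the largest differences. The members and lists were chosen with earlier results of these data known. Alternatives were DESeq2 1.42.0, other scalings and filters, lane, a replicate block and leaving out mice. Plots were drawn with matplotlib 3.10.9.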

Additional observations from a re-analysis of the deposited data

Results flagged for a closer look

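The site difference differed between AB1 and AE17 in the test of the interaction (edgeR, all 32 tumors, log2) for Hoxa7 (0.37), Hoxa10 (0.47), Hoxb8 (0.68), Hoxd3 (1.61), Hoxd4 (1.08), Hoxd8 (1.16), Hoxd9 (2.25) and Hoxd10 (2.87).

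Single tumors stood apart from the other 7 of their group in 7 of 121 combinations of a gene and a group, by a gap over range above Dixon's 95% critical value in log2 CPM, and chance alone gives about 1 in 20. In AE17 SC tumors these were replicate 8 for Hoxd10 (61 counts, highest, 0.564), for Hoxd13 (3 counts, lowest, 0.588) and for Hoxa7 (201 counts, highest, 0.56). In AB1 SC tumors replicate 8 was lowest for Hoxa5 (78 counts, 0.605) and Hoxa6 (19 counts, 0.586). Replicate 1 of AE17 IPL was lowest for Hoxa6 (41 counts, 0.622), and replicate 3 of AB1 IPL was lowest for Hoxd11 (313 counts, 0.575). The same AE17 SC tumor was thus the highest of its group for Hoxd10 and the lowest for Hoxd13, a member of the same cluster, and no cause was tested.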

How the results depend on the processing

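No Hox value changed direction in 1897 combinations of a called gene and an alternative, and 137 fell below the threshold. The combinations include the genes whose direction the count filter fixed and leave out called genes that an alternative did not test. Numbers of Hox genes called stayed within 1.5 times with DESeq2 (3 for AB1 sites, 9 for AE17 sites, 33 for SC models, 30 for IPL models and 8 for the interaction) and when 1 tumor was left out (2 to 3, 4 to 9, 30 to 31, 27 to 28 and 6 to 9). With the replicate block they were 2, 7, 31, 26 and 7. Over all genes the shares called were 21.3%, 9.72%, 49.3%, 46.4% and 18.8% with DESeq2, 15.5%, 4.51%, 60.1%, 55.5% and 18% with the block, and 19.4 to 24.8%, 2.14 to 14%, 61.2 to 64.9%, 56 to 61.3% and 17.2 to 23.2% with 1 tumor left out. Between AE17 sites the block lost Hoxa11 and added Hoxa10 and Hoxc8. Replicate numbers were not taken as pairs, since the labels give them no shared origin and deviations of same-numbered tumors had mean correlations of -0.12, 0.07, -0.12 and -0.06 in the 4 comparisons, with 0, 5, 2 and 1 of 8 pairs over 0.1, and 0, 4, 1 and 0 of 8 tumors correlated best with their own number. Keeping genes with 10 or more counts throughout left 3 calls between AE17 sites, 18 between IPL models and 4 for the interaction, where 5.59%, 59.3% and 21.4% of all genes passed, because fewer Hox genes were tested. With lane as a covariate the calls were 0 between AB1 sites, 3 between AE17 sites and 2 for the interaction. Hoxd10, which passed the count filter in that fit only through AB1, is among the 3 and among the 2. Within lane 3 alone 0 were called between AB1 sites, and within lane 1 alone 0 between AE17 sites. Both of the lane 1 and lane 3 fits, and the fit without AE17 SC replicates 5 and 6, which left 2 calls between AE17 sites, were chosen after seeing the data and hold fewer tumors. The posterior share without division by length was 53.55% in AB1 IPL, 54.69% in AB1 SC, 50.3% in AE17 IPL and 52.15% in AE17 SC tumors. Without Hoxd13 it was 39.98% in AB1 IPL and 40.74% in AB1 SC tumors, below the 45.83% and 48.38% of AE17 IPL and SC tumors, and without Hoxb3, Hoxd3 and Hoxd4, whose exons overlap other genes, 54.67% in AB1 SC tumors. Hoxb1, Hoxc12, Hoxd1 and Hoxd12 did not pass the count filter. DESeq2 and edgeR without a filter called Hoxc13 and Hoxd12 between the models at both sites. Hoxc13, Hoxd3 and Hoxd10 rest on few counts in AE17 IPL tumors.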
